A study of Mus musculus with 4 samples.

Results

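A set of 10 genes that set vascular tone from within the endothelium were followed through 4 single-cell libraries of mouse lung: the endothelin genes Edn1, Ece1 and Ednrb, the apelin genes Apln and Aplnr, the nitric oxide synthase gene Nos3, the prostanoid genes Ptgs1, Ptgs2 and Ptgis, and Ace. The 10 members were taken by symbol from the 32285 genes of the deposited tables, and all 10 were found once. Lung cells had been depleted of CD45-positive cells and selected for CD31 with beads, and each of the 4 groups was 1 library. The groups were sham-operated mice, whose genotype the labels do not state, and WT, M3cKO and Foxo1cKO mice on day 7 after PNX. PNX commonly stands for pneumonectomy, in which lung is removed by surgery, and cKO for conditional knockout. The 3 PNX groups share the operation and the day. Values for 4 libraries in a row are given in this order: sham first, then PNX in WT, in M3cKO and in Foxo1cKO mice. The series title concerns endothelial Rhoj and lung regeneration, but which gene M3 stands for, the driver of both knockouts, the age and sex of the mice and the number of animals pooled were not stated in these sources. With 1 library per group there was no spread between animals and no test, so every interval below is a 95% interval for counting error only.

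As background, endothelium controls vascular smooth muscle through a few short-range signals. Endothelin-converting enzyme (Ece1) cuts the precursor encoded by Edn1 into a strong vasoconstrictor, and the endothelial endothelin receptor encoded by Ednrb clears endothelin from the lung circulation and is coupled to release of dilators. Nos3 makes nitric oxide, the cyclooxygenases Ptgs1 (constitutive) and Ptgs2 (inducible) make prostaglandin H2 from arachidonic acid, and Ptgis turns that into the dilator prostacyclin. Apelin (Apln) acts through the receptor Aplnr, and the lung capillary bed is the classic site of angiotensin conversion by Ace. In mouse lung the alveolar capillaries hold general capillary cells and aerocytes, the large Car4-high cells that line the gas exchange surface.

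Endothelial cells were those with at least 500 genes, at most 10% mitochondrial UMIs (unique molecular identifiers, the tags by which captured transcripts are counted), at least 2 UMIs over Pecam1, Cdh5, Cldn5, Egfl7, Ramp2 and Tie1, and 0 of Ptprc, Epcam, Col1a1 and Col1a2. They numbered 4665 of 7617, 3887 of 9266, 2491 of 9080 and 3811 of 8720 barcodes, with sums of 6492399 to 13691550 UMIs and medians of 1841 to 2640 UMIs per cell. Levels are CPM, UMIs per 1000000 of the summed UMIs of the same cells, and they compare a gene between libraries and classes, not 1 gene with another. The CD31 gene Pecam1 stood at 2856 to 3353 CPM in the 4 libraries and Cdh5 at 2121 to 2515. Foxo1 was at 196, 208, 185 and 70.1 CPM, lowest in the library labelled Foxo1cKO PNX. Within that library Foxo1 was at 37.0 CPM (interval 31.0 to 43.7) in cells showing Xist alone and at 127 CPM (113 to 142) in cells showing Y-linked genes alone, while the same cells of WT PNX had 218 and 212 CPM. The reduction of Foxo1 was thus smaller in the cells with Y-linked transcripts. Despite the gate, 2.32% to 7.08% of the endothelial cells lay in clusters named for B, T or NK, epithelial, fibroblast or platelet markers, and the platelet gene Ppbp was at 22.1 CPM in sham against 222 to 322 CPM after PNX. The heat shock gene Hspa1a, which rises with cell stress, was at 217, 81.6, 643 and 95.8 CPM; its part in the differences of M3cKO PNX below was not tested. Between 235 and 299 barcodes per library also occurred in another library. Xist was at 132 and 154 CPM in WT PNX and Foxo1cKO PNX and at 0 in sham and M3cKO PNX, and all 4 libraries held cells with Y-linked transcripts.

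Cells were also assigned to classes by clustering without the members, and a cluster was called X-like from marker genes. Of the classes, 11 had at least 30 cells in every library: aerocyte-like (250 to 805 cells per library), general capillary-like (454 to 851), stress-like, venous-like (241 to 454), arterial-like (81 to 301), proliferating-like (31 to 327), systemic-like (53 to 183), lymphatic-like, interferon-like and the unnamed clusters 1 (led by Lpl, Hey1 and Glb1l2) and 3 (led by Slc26a10, Cdk19 and Ntrk2). Cluster 1 had 5 general capillary and 4 arterial markers among its 50 leading genes, and its depth was 0.62 of the library median. The general capillary-like class thus need not hold all cells of that kind. Aerocyte-like cells were 2 clusters, of which the smaller was led by haemoglobin genes beside Tbx2, Emp2 and Car4. A further unnamed cluster, 15, of 119 cells was led by the leukocyte genes Ccl3, Prss34 and Il1b although its cells had passed the endothelial gate.

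RefSeq windows of the 250 bases before the start site (GRCm38.p6) were found for 7 of the 10 members, and not for Aplnr, Nos3 and Ptgis. The 3 windows printed here belong to genes whose levels by class are followed below: Apln, with its peak in aerocyte-like cells, and the cyclooxygenase pair, with its peak in venous-like cells. Each reads 5′ to 3′ on the strand of its gene and ends at the base before the start site, with capitals for matches to the motifs searched.
Apln, chrX:48034854-48035103, minus strand: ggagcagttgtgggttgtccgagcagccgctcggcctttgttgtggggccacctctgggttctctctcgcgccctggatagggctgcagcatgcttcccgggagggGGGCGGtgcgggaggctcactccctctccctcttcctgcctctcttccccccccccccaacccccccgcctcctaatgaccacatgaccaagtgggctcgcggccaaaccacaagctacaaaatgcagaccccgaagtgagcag
Ptgs1, chr2:36230176-36230425, plus strand: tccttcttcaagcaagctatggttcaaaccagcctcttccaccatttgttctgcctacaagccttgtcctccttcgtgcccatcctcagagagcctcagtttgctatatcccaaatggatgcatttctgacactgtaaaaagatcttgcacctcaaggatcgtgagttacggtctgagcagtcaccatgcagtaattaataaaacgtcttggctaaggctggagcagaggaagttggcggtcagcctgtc
Ptgs2, chr1:150099781-150100030, plus strand: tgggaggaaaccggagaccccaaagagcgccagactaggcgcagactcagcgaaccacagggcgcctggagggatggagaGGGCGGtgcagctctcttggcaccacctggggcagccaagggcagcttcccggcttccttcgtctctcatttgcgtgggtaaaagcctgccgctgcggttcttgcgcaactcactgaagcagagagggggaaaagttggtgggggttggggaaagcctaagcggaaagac
Both strands were searched for 9 motifs, each given here with the share of all 32851 windows of this length that hold it. The letters TATAAA of the TATA box were in 12.4%, the box written CCAAT in 33.9%, and the GC box written GGGCGG in 32.7%. The AP-1 site searched as TGACTCA was in 4.46%, the CRE core searched as TGACGT in 6.47%, and the GATA site searched as AGATAA in 9.99%. The forkhead site searched as GTAAACA was in 3.17%, the E-box written CACGTG in 6.02%, and the nuclear receptor core searched as AGGTCA in 14.0%. Apln and Ptgs2 held 1 GC box each and Ptgs1 held none of the 9 motifs. GC content was 65.2% in Apln, 48.0% in Ptgs1 and 61.6% in Ptgs2, beside a median of 52.4% over all windows. A match is only a run of letters, and no forkhead match was present in these 3 windows, which says nothing of binding elsewhere.

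Across all endothelial cells, 3 of the 10 members exceeded sham by 1.5-fold or more in WT PNX (Nos3, Ptgs2 and Ptgis) and 0 lay that far below it. Of all genes that reached 10 CPM in either library, 11.3% were that much higher and 6.98% that much lower. In M3cKO PNX against WT PNX, 2 members were higher (Ptgs1 and Ptgis) and 4 lower (Ednrb, Apln, Aplnr and Ptgs2), beside 6.37% and 14.4% of all genes. In Foxo1cKO PNX against WT PNX, 0 members were higher and 1 was lower (Ptgs2), beside 1.09% and 1.39% of all genes. Scaling moved these shares: with TMM factors in place of CPM, 9.35% of all genes were higher and 8.98% lower in WT PNX against sham, and 9.22% higher and 9.90% lower in M3cKO PNX against WT PNX. With TMM factors, Ptgs2 alone of the 3 members exceeded sham by 1.5-fold, and Nos3 joined the members that were higher in M3cKO PNX; with DESeq2 size factors Ednrb was also no longer 1.5-fold lower there. The median log2 ratio of the 10 members (pseudocount of 5 CPM) was -0.02, -0.17 and -0.21 in the 3 comparisons, next to medians of 0.04, -0.13 and -0.01 over all genes measured. Since WT PNX enters all 3 comparisons, the values of each member are given side by side and no likeness between comparisons is drawn from them.

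**Figure D1:**
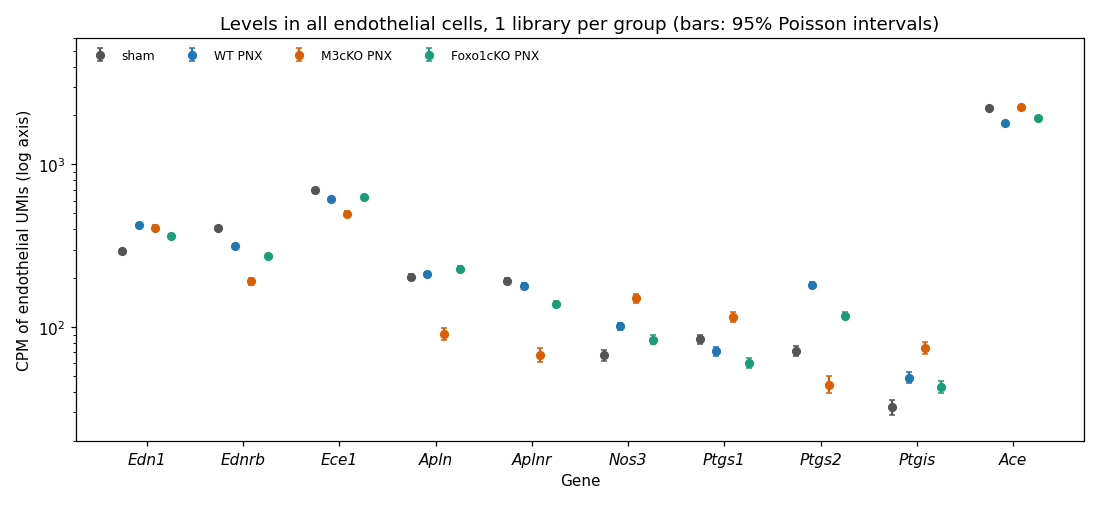
Level of each gene in all endothelial cells (CPM of summed UMIs, log axis), with 1 point per library, sham first, and bars for 95% Poisson intervals. Aplnr stands at 67.6 CPM in M3cKO PNX against 139 to 192 CPM in the other libraries, and Ptgs2 runs from 44.4 CPM in M3cKO PNX to 181 CPM in WT PNX.

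**Figure D2:**
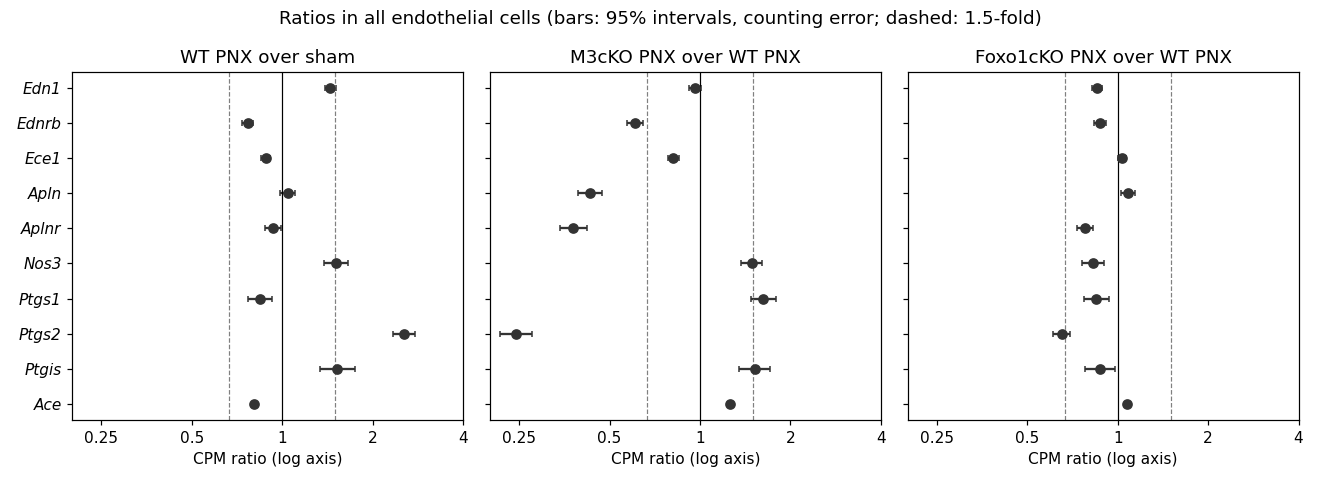
Ratio of CPM in all endothelial cells for the 3 comparisons (log axis), with 95% intervals for counting error and dashed lines at 1.5-fold in either direction. Ptgs2 lies at 2.54 in WT PNX over sham, at 0.245 in M3cKO PNX over WT PNX and at 0.651 in Foxo1cKO PNX over WT PNX.

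The endothelin ligand gene Edn1 was at 294, 425, 409 and 362 CPM. Sham was the lowest library, and WT PNX stood 1.45-fold above it (interval 1.38 to 1.51), short of the 1.5-fold rule. By class, Edn1 was highest in arterial-like cells in 3 of 4 libraries, at 1165.6, 850.3, 984 and 1199.7 CPM, and lowest in lymphatic-like cells at 8.92 to 39.0 CPM. In M3cKO PNX the unnamed cluster 3 was above arterial-like cells, at 1011 CPM. Aerocyte-like cells were also low, at 62.7, 135, 63.8 and 82.6 CPM, while general capillary-like cells had 254, 377, 526 and 299.5 CPM. Cluster 3, at 414 to 1011 CPM over the libraries, and cluster 1, at 401 to 829 CPM, overlapped. Venous-like cells had 409, 656, 305 and 524 CPM, so that M3cKO PNX was 2.15-fold below WT PNX there and 1.40-fold above it (interval 1.25 to 1.56) in general capillary-like cells. M3cKO PNX had no Xist, whereas WT PNX mixed 2 kinds of cell. Its venous-like cells had 1162 CPM with Xist alone and 368 CPM with Y-linked transcripts alone, and its general capillary-like cells 500 and 279 CPM. The part of sex or animal in these 2 differences was not tested.

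The level of Edn1 in WT PNX differed by the sex-chromosome transcripts of the cell. The 938 endothelial cells showing Xist alone had 635 CPM, and the 798 cells showing Y-linked genes alone had 277 CPM, a ratio of 2.295 (interval 2.13 to 2.47). Their median depths were 2683 and 4141 UMIs. The cells with Xist were higher in all 8 classes with at least 30 cells of each kind, by 1.27 to 3.15 times, with an interval above 1 in each. In venous-like cells the values were 1162 and 368 CPM, and in aerocyte-like cells 257 and 83.5 CPM. In Foxo1cKO PNX the same split gave 354 and 357 CPM, a ratio of 0.991 (interval 0.909 to 1.08), and 4 of 7 classes were higher in the cells with Xist. Among cells with Y-linked transcripts, Edn1 was at 275, 277, 359 and 357 CPM, so sham and WT PNX lay close together there and the log2 ratio was 0.01, against 0.53 in all endothelial cells. Cells of different sex are cells of different animals, so sex and animal cannot be told apart. In Foxo1cKO PNX these cells also differed in Foxo1 itself, at 37.0 CPM with Xist and 127 CPM with Y-linked transcripts, and its part in the Edn1 values was not tested.

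**Figure D3:**
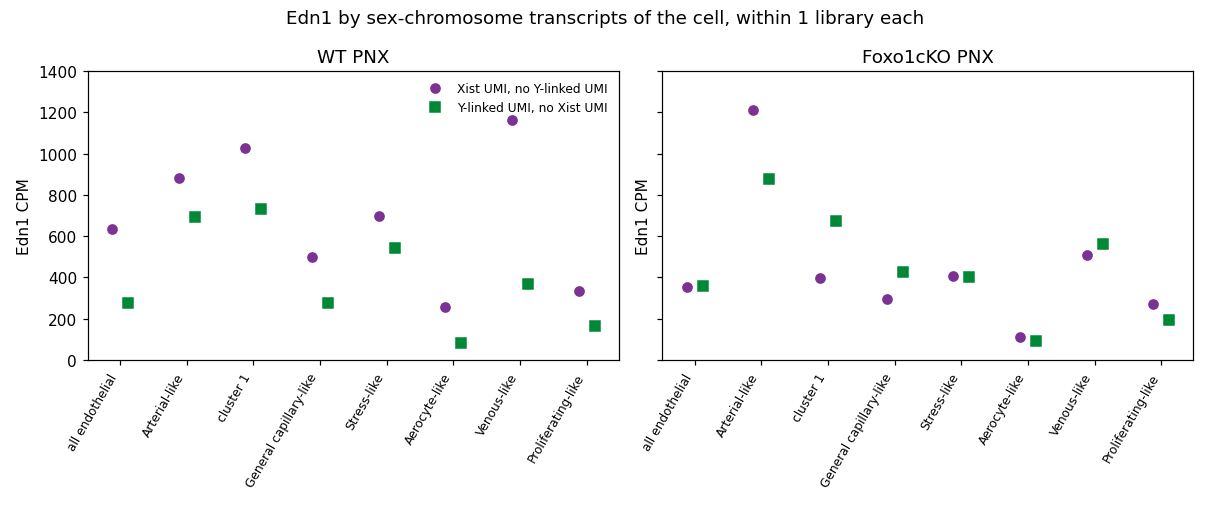
Edn1 level (CPM) in cells showing Xist alone (circles) and Y-linked genes alone (squares), within the WT PNX library (left) and the Foxo1cKO PNX library (right), over all endothelial cells and in the classes with at least 30 cells of each kind in both libraries. The circles lie above the squares in every class shown of WT PNX, with 1162 against 368 CPM in venous-like cells, and on both sides of them in Foxo1cKO PNX.

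The gene of the converting enzyme, Ece1, was at 696, 612, 499 and 632 CPM, with M3cKO PNX the lowest. WT PNX over sham was 0.880 (interval 0.852 to 0.908) and M3cKO PNX over WT PNX 0.815 (interval 0.783 to 0.849), both within 1.5-fold. Ece1 was measured in every class: venous-like cells had 776 to 1258 CPM and aerocyte-like cells, the lowest, 293 to 469 CPM. M3cKO PNX was below WT PNX in 11 of 11 classes, by ratios of 0.642 to 0.978, with an interval under 1 in 4 of them.

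The endothelin receptor gene Ednrb was almost confined to aerocyte-like cells, which held 92.9%, 85.1%, 90.5% and 84.1% of its endothelial UMIs. Its level there was 1543, 1419, 1256 and 1017 CPM, and the other 10 classes reached 148 CPM at most. Over all endothelial cells it was at 409, 314, 191 and 274 CPM, so that M3cKO PNX was 1.64-fold below WT PNX (fold interval 1.54 to 1.75). Within aerocyte-like cells the same comparison gave a ratio of 0.885 (interval 0.827 to 0.947), while these cells gave 18.8% of the endothelial UMIs in WT PNX and 13.8% in M3cKO PNX. With each library weighted to the class composition of WT PNX, Ednrb was at 257 CPM in M3cKO PNX against 314 CPM, within 1.5-fold. In cells with Y-linked transcripts alone it was at 500.3 CPM in sham and 274 CPM in WT PNX, past the 1.5-fold rule, which all endothelial cells together (409 and 314 CPM) did not pass. Foxo1cKO PNX over WT PNX in aerocyte-like cells was 0.717 (interval 0.682 to 0.753). It was 0.537 (interval 0.486 to 0.595) in those with Xist alone and 1.01 (interval 0.908 to 1.13) in those with Y-linked transcripts alone. The part of sex, animal or remaining Foxo1 in this difference was not tested. Of the 8 genes of the endothelin list (the other 5 being Edn2, Edn3, Ece2, Ednra and Mme), only the 3 members reached 10 CPM.

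Apln was highest in aerocyte-like cells, where its receptor gene Aplnr was low. It was at 744, 851, 437 and 705 CPM in aerocyte-like cells, and these held 66.1% to 90.3% of its UMIs. Systemic-like cells, which carry Col15a1 and Prnd, came next with 119.6, 347, 353 and 413 CPM, sham being the lowest there on 55 cells (WT PNX over sham 2.90, interval 1.84 to 4.82). All 9 other classes were at or below 92.0 CPM. Over all endothelial cells Apln was at 203, 211, 90.9 and 228 CPM, with M3cKO PNX 2.32-fold below WT PNX (fold interval 2.12 to 2.54) and the other 3 libraries close together. Inside aerocyte-like cells M3cKO PNX was 1.95-fold below WT PNX, and in systemic-like cells the ratio was 1.02 (interval 0.759 to 1.35).

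Aplnr was at 192, 178, 67.6 and 139 CPM over all endothelial cells. M3cKO PNX was the lowest library, 2.64-fold below WT PNX (fold interval 2.38 to 2.93). The same direction was seen in 11 of 11 classes, with ratios of 0.436 or less and an interval under 1 in 10 of them. In general capillary-like cells the levels were 355, 317, 128 and 244 CPM, in stress-like cells 316, 342, 96.6 and 304 CPM, in cluster 1 318, 360, 95.6 and 192 CPM, and in systemic-like cells 191, 343, 139 and 355 CPM. The ranges of these 4 classes over the libraries overlapped. Aerocyte-like cells were low for the receptor, at 49.6, 69.4, 16.8 and 48.6 CPM, and arterial-like and lymphatic-like cells did not exceed 61.6 CPM. Foxo1cKO PNX was below WT PNX in 10 of 11 classes and stood at 0.777 of it over all endothelial cells (interval 0.730 to 0.827). The third gene of the apelin list, Apela, did not reach 10 CPM.

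**Figure D4:**
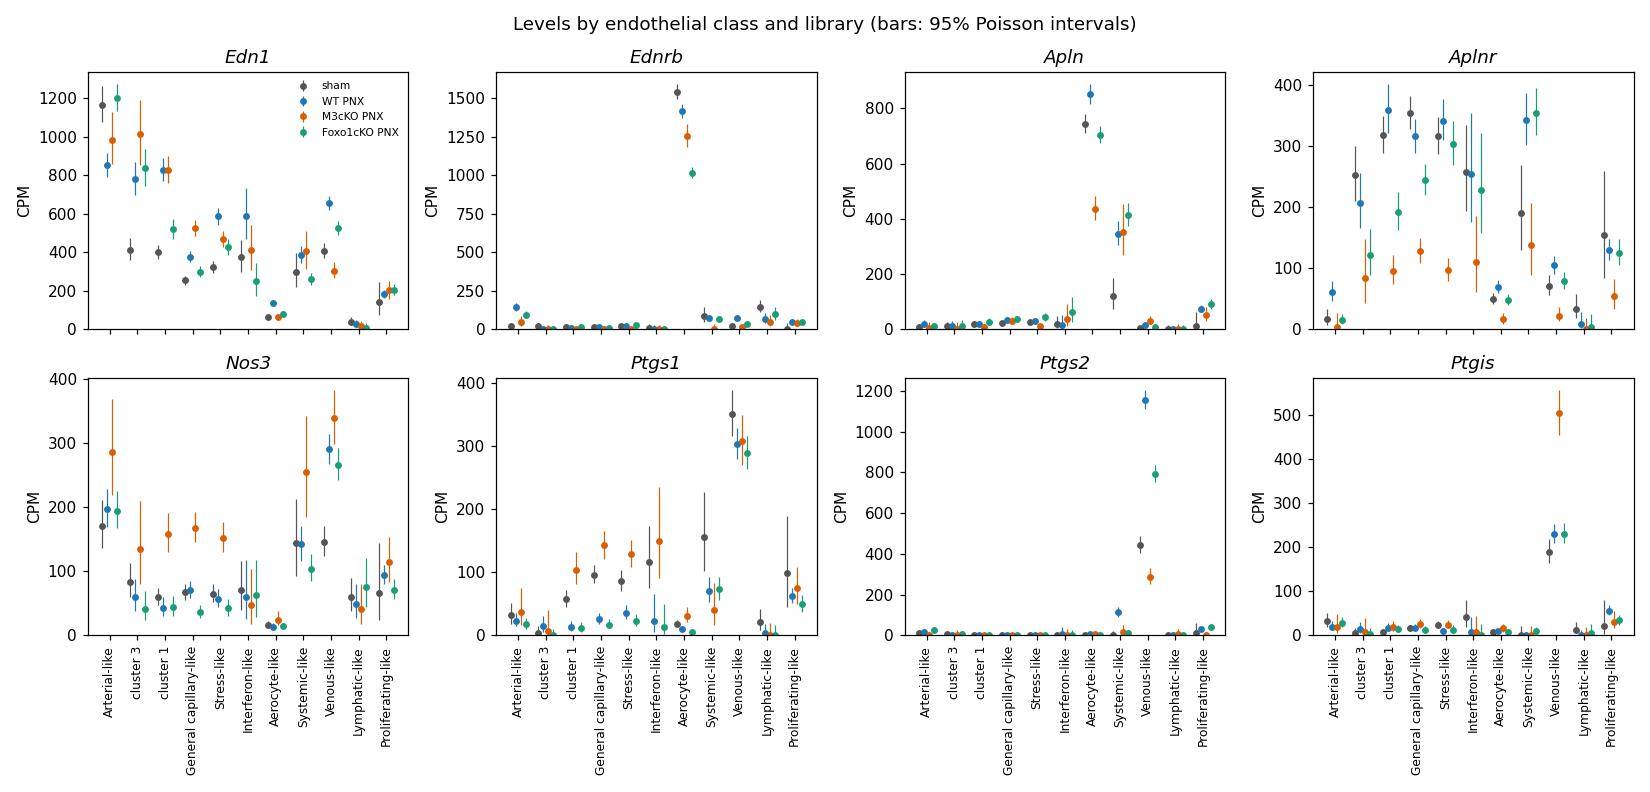
Level (CPM) of 8 of the genes in the 11 endothelial classes, with 1 point per library and bars for 95% Poisson intervals; each panel has its own linear axis from 0. Ednrb and Apln peak in aerocyte-like cells, and Ptgs1, Ptgs2 and Ptgis in venous-like cells, where Ptgs1 spans 289.6 to 351 CPM over the 4 libraries and Ptgs2 288 to 1157 CPM.

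Nos3 was at 67.0, 101, 150.5 and 83.9 CPM. WT PNX was 1.51-fold above sham (interval 1.38 to 1.66), and M3cKO PNX stood 1.49-fold above WT PNX (interval 1.37 to 1.61), just under the rule. With TMM factors these came to 98.0 against 68.0 CPM and to 159 against 98.0 CPM, so the first call was lost and the second made. Large-vessel classes had the highest levels: venous-like cells had 146, 291, 339.7 and 267 CPM and arterial-like cells 171, 197, 287 and 195 CPM, in overlapping ranges. Aerocyte-like cells had the lowest, at 13.6 to 24.6 CPM. WT PNX exceeded sham by 1.99-fold (interval 1.66 to 2.40) in venous-like cells, whereas general capillary-like cells gave a ratio of 1.06 (interval 0.812 to 1.37) and 7 of 11 classes were lower in WT PNX. The excess of M3cKO PNX over WT PNX had the other pattern: 2.37-fold in general capillary-like cells (168 against 70.9 CPM, interval 1.87 to 3.01) and 1.17-fold in venous-like cells, with a higher value in 9 of 11 classes. Among general capillary-like cells Foxo1cKO PNX was the lowest library, at 36.8 CPM and 1.93-fold below WT PNX. Those with Xist alone had 43.75 CPM against 50.9 CPM in WT PNX (ratio 0.859, interval 0.432 to 1.73). Those with Y-linked transcripts alone had 12.4 CPM on 3 UMIs against 92.9 CPM on 46 UMIs. The part of sex, animal or remaining Foxo1 in this difference was not tested.

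Of the 22 genes on the nitric oxide list, 18 were measured at 10 CPM or more in each comparison. In WT PNX against sham 6 were at least 1.5-fold higher, among them Nos3, Ddah1, Ass1, Slc7a1 and Prkg1, and 0 lower. Ass1, which makes the precursor of arginine, was at 59.7 CPM in sham and 131 CPM in WT PNX, and the arginine transporter gene Slc7a1 at 22.0 and 40.9 CPM. In M3cKO PNX against WT PNX 1 gene was higher (Gch1) and 6 were lower, among them Nos2, Gucy1a1, Gucy1b1, Prkg1 and Pde5a. Pde5a, which degrades the cyclic GMP that nitric oxide raises, was at 27.0 CPM in WT PNX and 13.7 CPM in M3cKO PNX. Gucy1a1, which was 19 UMIs in M3cKO PNX, is also on the list of markers for mural cells (pericytes and smooth muscle). The mural genes Pdgfrb and Acta2 were at 2.92 and 20.3 CPM in WT PNX and at 0.154 and 7.55 CPM in M3cKO PNX. The part of carried-over mural RNA in these lower levels was not tested. In Foxo1cKO PNX against WT PNX 0 were higher and 1 was lower (Prkg1). Of all genes 11.3% were higher and 6.98% lower in the first comparison, 6.37% and 14.4% in the second (9.22% and 9.90% with TMM factors) and 1.09% and 1.39% in the third. The list medians of the log2 ratio were 0.09, -0.27 and -0.06 in the 3 comparisons, and the medians of all genes 0.04, -0.13 and -0.01.

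The constitutive cyclooxygenase gene Ptgs1 was at 84.3, 71.1, 115.5 and 60.3 CPM, and M3cKO PNX was 1.62-fold above WT PNX (interval 1.47 to 1.79). Venous-like cells held 30.9% to 64.0% of its UMIs. Its level there, the highest of the classes in each library, was 351, 303, 308 and 289.6 CPM, and M3cKO PNX over WT PNX was 1.015 (interval 0.868 to 1.18). The libraries parted in general capillary-like cells and in other classes, of which 3 are given next. General capillary-like cells had 96.2, 25.5, 142.5 and 17.1 CPM, stress-like cells had 86.0, 35.1, 129 and 22.6 CPM, interferon-like cells had 117, 22.4, 150.3 and 13.9 CPM, and cluster 1 had 57.4, 12.5, 104 and 11.01 CPM. Sham and M3cKO PNX were thus high and WT PNX and Foxo1cKO PNX low in each of these 4 classes, which were singled out after their values were seen. Systemic-like cells differed, with 155.5, 70.4, 40.5 and 72.7 CPM. In general capillary-like cells WT PNX was 3.77-fold below sham and M3cKO PNX was 5.59-fold above WT PNX (interval 3.95 to 8.07). Sham and M3cKO PNX are also the libraries without Xist. Within WT PNX, general capillary-like cells with Xist had 27.0 CPM (9 UMIs) and those with Y-linked transcripts 28.3 CPM (14 UMIs), both below the 96.2 CPM of sham. In stress-like cells of WT PNX the same split gave 60.6 CPM on 21 UMIs and 8.89 CPM on 2 UMIs. The part of sex or animal in these levels of Ptgs1 was not tested. Over all endothelial cells with Y-linked transcripts, the levels in M3cKO PNX and WT PNX were 104 and 88.7 CPM, within 1.5-fold.

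The inducible cyclooxygenase gene Ptgs2 was at 71.4, 181, 44.4 and 118 CPM over all endothelial cells. WT PNX was the highest library, 2.54-fold above sham (interval 2.34 to 2.76), 4.08-fold above M3cKO PNX (interval 3.61 to 4.63) and 1.54-fold above Foxo1cKO PNX (interval 1.44 to 1.64). Venous-like cells had 445, 1157, 288 and 794 CPM, and in WT PNX and Foxo1cKO PNX they held 92.0% and 89.8% of the UMIs. Ptgs2 in general capillary-like, aerocyte-like, stress-like and cluster 1 cells did not exceed 5.60 CPM in any library. Systemic-like cells had 113 CPM in WT PNX and 0 to 17.4 CPM in the other libraries. The UMIs came from few cells: the 1% of endothelial cells with most Ptgs2 held 54.5% to 81.6% of them, and 1 cell held 11.8% in M3cKO PNX.

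A part of the Ptgs2 signal was not in endothelial classes. In sham, 33.2% of the UMIs counted as endothelial lay in the 50 cells of cluster 15, the cluster led by Ccl3, Prss34 and Il1b, at 2149.5 CPM, and in M3cKO PNX 18.1% lay there, while in WT PNX it was 0.0403%. Leukocyte-gated cells, with a Ptprc UMI and none of the 6 endothelial genes, had 1363, 163.5, 248 and 65.4 CPM. Without cluster 15 and the clusters named for other lineages, sham was at 48.4 CPM and WT PNX at 194 CPM, a log2 ratio of 1.89 in place of 1.29, and without venous-like cells the direction turned, with 30.7 CPM in sham and 16.9 in WT PNX. With cluster 15, the clusters of other lineages and the venous-like cells all left out, sham was at 3.21 CPM and WT PNX at 16.8 CPM, a log2 ratio of 1.41, so the turn did not hold without cluster 15 and those clusters. Among WT PNX cells, those with Xist had 154 CPM and those with Y-linked transcripts 208 CPM. In Foxo1cKO PNX the values were 70.4 and 192 CPM, and among cells with Y-linked transcripts Foxo1cKO PNX and WT PNX were 192 and 208 CPM, no longer 1.5-fold apart. Foxo1 in the cells with Y-linked transcripts was at 127 CPM in Foxo1cKO PNX and 212 CPM in WT PNX, and in the cells with Xist at 37.0 and 218 CPM; its part in the Ptgs2 values was not tested. Within venous-like cells Foxo1cKO PNX was 1.46-fold below WT PNX (0.686, interval 0.640 to 0.735), under the rule.

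Ptgis, the prostacyclin synthase gene, was at 32.2, 49.0, 74.6 and 42.9 CPM. WT PNX was 1.52-fold above sham (interval 1.33 to 1.74) and M3cKO PNX 1.52-fold above WT PNX (interval 1.35 to 1.71). Venous-like cells held 57.7% to 78.3% of its UMIs, at 189.6, 229.8, 503 and 231 CPM, and no other class exceeded 56.1 CPM. Within venous-like cells M3cKO PNX was 2.19-fold above WT PNX (interval 1.91 to 2.51), whereas WT PNX over sham was 1.21 (interval 1.02 to 1.44) and Foxo1cKO PNX over WT PNX 1.00 (interval 0.874 to 1.15). Venous-like cells gave 9.80% of the endothelial UMIs in sham and 14.4% in WT PNX, and with the classes weighted to WT PNX the levels were 42.1 CPM in sham and 49.0 CPM in WT PNX, within 1.5-fold; with TMM factors they were 32.7 and 47.4 CPM, also within it. Fibroblast-gated cells also expressed Ptgis, at 336 to 667 CPM on 12 to 41 cells per library. In the venous-like class the fibroblast gene Col3a1 was among the 10 leading genes, although Col1a1 and Col1a2 were at 0 by the gate. Its part in the Ptgis level was not tested.

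Seen together in venous-like cells, the 3 prostanoid members differed between libraries from each other: Ptgs1 spanned 289.6 to 351 CPM, Ptgs2 was highest in WT PNX, and Ptgis was highest in M3cKO PNX. Of the 20 genes on the prostanoid list, 9 were measured. In WT PNX against sham 3 were higher (Pla2g4a, Ptgs2 and Ptgis) and 1 lower (Tbxa2r, the thromboxane receptor gene). In M3cKO PNX against WT PNX 2 were higher (Ptgs1 and Ptgis) and 4 lower (Pla2g4a, Ptgs2, Abcc4 and Tbxa2r), and in Foxo1cKO PNX against WT PNX only Ptgs2 was lower. Pla2g4a, whose phospholipase frees arachidonic acid, was at 14.7 CPM in sham, 34.4 in WT PNX and 11.6 in M3cKO PNX. Slco2a1, the prostaglandin uptake transporter, was at 2151, 1759, 2042 and 1943 CPM, within 1.5-fold throughout, and Hpgd, which inactivates prostaglandins, was at 1528 CPM in WT PNX and 1315 CPM in Foxo1cKO PNX. Beside these counts, 11.3% of all genes were higher and 6.98% lower in WT PNX, 6.37% higher and 14.4% lower in M3cKO PNX, and 1.39% lower in Foxo1cKO PNX. The list medians of the log2 ratio were -0.03, -0.15 and -0.15, against 0.04, -0.13 and -0.01 over all genes.

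Ace was at 2222, 1790.4, 2257 and 1927 CPM and was within 1.5-fold in every comparison over all endothelial cells. WT PNX was the lowest library, at 0.806 of sham (interval 0.791 to 0.820), and M3cKO PNX was 1.26-fold above it (interval 1.24 to 1.29). Arterial-like cells had 3679.9, 3134, 4357 and 3838 CPM, and clusters 1 and 3 had 2809 to 3883 CPM, in overlapping ranges. General capillary-like cells had 2182 to 2838 CPM and aerocyte-like cells 1909 to 2319 CPM, also overlapping. Lymphatic-like cells were the lowest at 40.1 to 268 CPM. In M3cKO PNX against WT PNX 3 of the 11 classes passed 1.5-fold: Ace was higher in venous-like cells (1.72, interval 1.59 to 1.86) and systemic-like cells (1.99, interval 1.71 to 2.31) and lower in lymphatic-like cells (51.3 against 129 CPM). The lymphatic-like values were only 10 UMIs in M3cKO PNX and 40 in WT PNX. Leukocyte-gated cells had 57.8 and 93.45 CPM of Ace in these libraries, so a part of free RNA in the lymphatic-like values cannot be told apart. Of the 14 genes of the renin-angiotensin and kinin list, 5 were measured, and only Bdkrb2, the kinin receptor gene, passed the rule (higher in WT PNX against sham, lower in Foxo1cKO PNX against WT PNX). Of all genes, 11.3% were higher in WT PNX against sham and 1.39% lower in Foxo1cKO PNX against WT PNX. The aminopeptidase gene Lnpep was at 61.1, 71.0, 56.8 and 68.1 CPM.

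Counting members inside 1 class changed which passed the rule. In general capillary-like cells 9 members were measured, and 1 was apart in WT PNX against sham (Ptgs1, lower), 4 in M3cKO PNX against WT PNX (Nos3 and Ptgs1 higher, Ednrb and Aplnr lower) and 1 in Foxo1cKO PNX against WT PNX (Nos3, lower). The shares of all genes apart in either direction in that class were 22.5%, 27.7% and 11.8%. In aerocyte-like cells 9 were measured, and 2 (Edn1 higher, Ptgs1 lower), 5 (Nos3 and Ptgs1 higher, Edn1, Apln and Aplnr lower) and 2 (Edn1 and Ptgs1 lower) were apart, beside 17.6%, 26.6% and 7.17% of all genes. Edn1 in aerocyte-like cells of WT PNX was at 257 CPM with Xist alone and 83.5 CPM with Y-linked transcripts alone. The part of sex or animal in the Edn1 calls was not tested. Class sums are smaller, so some calls rest on few UMIs. Ptgs1 in aerocyte-like cells was 27 UMIs in WT PNX and 16 in Foxo1cKO PNX. Ednrb in general capillary-like cells was 22 UMIs in WT PNX and 5 in M3cKO PNX. Leukocyte-gated cells had 3.22 CPM of Ednrb (4 UMIs) in WT PNX and 10.5 CPM (42 UMIs in 19 cells) in M3cKO PNX. The part of free RNA in these low levels of Ednrb was not tested.

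As another group of vasoactive signals, 12 natriuretic peptide and adrenomedullin genes were listed, and 5 to 6 were measured. None was 1.5-fold apart in WT PNX against sham or in Foxo1cKO PNX against WT PNX. In M3cKO PNX 2 were higher and 0 lower: Ramp3, an accessory protein of the adrenomedullin receptor, was at 80.1 CPM against 18.1 in WT PNX (4.42-fold, interval 3.79 to 5.17), and Npr3, the natriuretic peptide clearance receptor, at 182 against 95.1 CPM. Calcrl, the receptor partner of the RAMP proteins, was at 1444 against 2158 CPM, within 1.5-fold. Of all genes, 6.37% were higher and 14.4% lower in M3cKO PNX against WT PNX (9.22% and 9.90% with TMM factors). The shares were 11.3% and 6.98% in WT PNX against sham, and 1.09% and 1.39% in Foxo1cKO PNX against WT PNX. This list holds Ramp2, which the endothelial gate used.

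Over the 44 values of 11 classes in 4 libraries, the genes with the most similar profile (Pearson correlation of log2(CPM + 5), among 6888 genes) were named for each member. The points share libraries and depth, so these are descriptions. For Edn1 they were Eogt (0.92), Ptprb and Samd12. Ednrb had Tln2 (0.87), Sirpa and Xpnpep2, and Apln had AW112010 (0.88), Dcbld1 and Chst2. Ece1 had Nucb1 (0.83) and Crim1, and Aplnr had Pcdh17 (0.86), Dnah8 and Itpripl1. For Nos3 they were Tinagl1 (0.85) and Dab2ip. Ptgs1 had Tmem252 (0.80), Nfkbia and Cd200, Ptgs2 had Cyp1b1 (0.95), Baalc and Cygb, and Ptgis had Col14a1 (0.82), Slc6a2 and Amigo2. Ace had Plekha2 (0.95), Acvrl1 and Epas1. Sirpa is 1 of the aerocyte markers, Ptprb 1 of the general capillary markers, and Tmem252, Slc6a2 and Amigo2 are venous markers used to name the classes. Among the members, the closest pair was Edn1 with Ace (0.80), followed by Ptgs2 with Ptgis (0.71).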

How the data were processed

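Single-cell RNA was measured in 4 libraries, 1 per group, so no test was made. Per the labels' protocols, lungs were digested with type 1 collagenase (2 mg/mL, 40 min, 37 °C), and reads were aligned (mm10) by Cell Ranger 2.1.1. Cell Ranger and R 3.4.4 stand in the submitters' processing notes, and the matrix headers name software 3.0.0. The matrices hold raw UMI counts, as the authors deposited them, without normalization. How many barcodes the authors removed is not given in the sources used here.

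Endothelial counts were summed per library and per class and given as CPM with exact Poisson 95% intervals; ratios have exact conditional binomial intervals. A gene counted as measured at 10 CPM in the higher library and as apart at 1.5-fold. Doublets were not removed beyond the gate; removing the cells with the highest Scrublet scores (0.8% per 1000 barcodes) was an alternative, as were TMM factors (edgeR 4.0.16), DESeq2 1.42.0 size factors, thinning to 2000 UMIs per cell and further settings of the gate, classes and thresholds. Leaving out clusters of other lineages, the venous class or both, and the venous class alone were added after the data were seen. Clustering without library centring, the planned form, was kept as an alternative for class levels. Classes came from scanpy 1.11.5 (2000 variable genes, 30 components, 15 neighbours, Leiden resolution 1) with the members, the listed pathway genes and sex-linked, mitochondrial and ribosomal genes left out. Each gene was centred and scaled within its library first, a departure from the planned design that was chosen after the clustering without centring had split capillary cells by library. A cluster was named when 3 markers of a class were among its 50 leading genes, more than of any other class, and when that class had the most among the first 10. Gene positions are GRCm38. Python 3.11.15 was used. The steps were tested on simulated data.

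Named genes were all members, up to 3 other genes per list and comparison with the largest log2 ratio at 20 CPM or more, and the 3 genes most like each member among those reaching 50 CPM; a few genes that the rule names are not reported here. Genes counted as passing in a list of 5 or fewer, Ddah1, Gucy1a1, Gucy1b1, Hspa1a, Ppbp, Pdgfrb, Acta2, Pecam1, Cdh5 and Foxo1 stand outside this rule and were chosen after their values were seen. The members and lists were chosen with earlier results of these data known.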

Additional observations from a re-analysis of the deposited data

Results flagged for a closer look

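For 3 members the comparison of Foxo1cKO PNX with WT PNX went in opposite directions in cells with Xist UMIs and in cells with Y-linked UMIs, with both counting intervals clear of 1. For Edn1 the ratio was 0.557 (interval 0.520 to 0.597) in the cells with Xist and 1.29 (1.18 to 1.41) in the cells with Y-linked transcripts. For Ece1 it was 0.905 (0.853 to 0.960) and 1.18 (1.11 to 1.26), and for Apln 1.49 (1.34 to 1.65) and 0.809 (0.724 to 0.903). These ratios are over all endothelial cells, and within classes the directions were not always opposite. In venous-like cells, with Xist first, the ratios were 0.440 and 1.52 for Edn1 and 0.8495 and 1.365 for Ece1. In arterial-like cells they were 1.37 and 1.265 for Edn1 and 1.18 and 1.13 for Ece1. In general capillary-like cells they were 0.595 and 1.53 for Edn1 and 1.07 and 1.04 for Ece1. Aerocyte-like cells were 125 of 938 cells with Xist in WT PNX and 185 of 932 in Foxo1cKO PNX. Within aerocyte-like cells Apln was lower in Foxo1cKO PNX in both kinds of cell, at 604 against 759 CPM with Xist (ratio 0.796, interval 0.701 to 0.905) and at 641 against 818 CPM with Y-linked transcripts (0.784, interval 0.683 to 0.898). Foxo1 was at 218 CPM in WT PNX and 37.0 CPM in Foxo1cKO PNX in the cells with Xist, and at 212 and 127 CPM in the cells with Y-linked transcripts; its part in the opposite directions was not tested. Each kind of cell stands for an unknown number of animals in 1 library, and the difference between the directions was not tested.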

How the results depend on the processing

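Of 540 log2 ratios of single members under the alternatives, 306 moved by less than their counting interval. The sign changed in 40, of which 7 concerned a member that was 1.5-fold apart as reported. These were Ptgis in M3cKO PNX against WT PNX (-0.0744 with at most 5% mitochondrial UMIs and -0.0187 without venous-like cells), Ptgs2 in WT PNX against sham (-0.0378 in general capillary-like cells and -0.71 without venous-like cells, but 1.41 with clusters of other lineages left out as well), Nos3 in WT PNX against sham (-0.19 in aerocyte-like cells), Ptgs2 in M3cKO PNX against WT PNX (0.26 in aerocyte-like cells) and Apln in M3cKO PNX against WT PNX (0.76 in venous-like cells). Ptgs2 in the capillary classes was near the floor. It was 4 UMIs in WT PNX and 5 in sham in general capillary-like cells. In aerocyte-like cells it was 5 in M3cKO PNX and 10 in WT PNX.

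The count of members apart between WT PNX and sham, 3 as reported, was 1 with TMM factors, 1 with DESeq2 size factors, 1 in general capillary-like cells, 1 with weighted classes, 1 at 2-fold and 5 in venous-like cells. Between M3cKO PNX and WT PNX it was 6, and 3 both at 2-fold and in cells with Y-linked transcripts alone. Between Foxo1cKO PNX and WT PNX it was 1; it was 2 with at most 5% mitochondrial UMIs, in aerocyte-like cells and in venous-like cells, and 0 with cells thinned to 2000 UMIs, as a mean of per-cell CPM, with weighted classes, in cells with Y-linked transcripts alone, without shared barcodes, without venous-like cells and at 2-fold. The cause was not tested. With TMM factors, 9.35% of all genes were higher and 8.98% lower in WT PNX against sham. With DESeq2 size factors these shares were 9.17% and 9.32%. In general capillary-like cells 22.5% were apart in that comparison, and in aerocyte-like cells 7.17% in Foxo1cKO PNX against WT PNX. The shares under the other settings are not reported here, so a change of count is not read as a result about the members. TMM factors moved the median log2 ratio of all genes in M3cKO PNX against WT PNX from -0.13 to -0.01. Leaving out a replicate was not possible, and no paired analysis was possible because each group is 1 library; class levels with few UMIs are limited by depth.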

Other observations

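Cluster 17, led by Fosl1, Noct and Inhbb, had too few cells in sham for a value. In the 3 PNX libraries, WT first, then M3cKO and Foxo1cKO, its Nos3 level was 126, 259 and 61.4 CPM and its Aplnr level 227, 24.3 and 114 CPM. These rest on few UMIs from 40, 51 and 42 cells: 15, 32 and 7 of Nos3 and 27, 3 and 13 of Aplnr. Cells in the clusters named for alveolar epithelial markers, which had passed the endothelial gate, had 550.2 CPM of Ednrb in sham, 208 in WT PNX and 515 in Foxo1cKO PNX. In the platelet-marked cluster, Ptgs1 was at 99.7 CPM in WT PNX and 200.4 CPM in Foxo1cKO PNX, against 71.1 and 60.3 CPM in all endothelial cells. Sham and M3cKO PNX had too few cells there for a level. Their 26 and 21 cells held 7 and 28 UMIs of Ptgs1, which were 0.791% and 3.73% of its endothelial UMIs.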
